A study of Homo sapiens with 6 samples.

Results

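The genes described here encode the components of the spliceosome, the RNA and protein machine that removes introns from precursor mRNA. The rule that defines them uses annotation and no measured value. A gene of the deposited count table was a member if the pathway annotation of its row held the KEGG spliceosome map (hsa03040) and its symbol did not begin with HSPA, which left out the 6 heat shock 70 kDa protein genes that KEGG also draws on that map. The rule found 125 members among the 16279 genes of the table. All 125 passed the filter on low counts, which kept 13311 genes.

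In splicing, the U1 small nuclear ribonucleoprotein (snRNP) recognises the start of an intron and the U2 snRNP its branch point. The U4/U6 and U5 snRNPs then join as a tri-snRNP, the PRP19 complex takes part in activation, and RNA helicases drive the rearrangements that lead to cutting, joining and release. Each snRNP carries a ring of Sm or LSm proteins, whereas serine/arginine-rich (SR) proteins and heterogeneous nuclear ribonucleoproteins (hnRNPs) bind the transcript and influence which splice sites are used. The genes are used by nucleated cells in general and are not particular to the endometrium.

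To examine the effect of chemerin, an adipokine, on endometrial epithelial cells, the study sequenced RNA from the human cell line 12Z. The line was derived from endometriosis and serves as a model of endometrial epithelial cells. The Control group (n = 3) was untreated, and the rhChemerin group (n = 3) received recombinant human chemerin ending at Ser157 (rhChem157S) at 10 ng/mL for 48 h. All 6 libraries came from this 1 line and are labelled as biological replicates, but separate cultures are not described, so the p-values measure the spread between these libraries.

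The libraries held 35430881 to 38341643 counted reads, and no pair of libraries was identical. Levels are given as scaled FPKM, the deposited FPKM (reads scaled by gene length and library total) divided by the TMM factor of the library, so that they can be compared between genes and between libraries. TMM factors ran from 1.04 to 1.05 in Control and were 1.00, 0.973 and 0.898 in rhChemerin 1, 2 and 3. Of the 8 epithelial markers examined, KRT8, KRT18 and KRT19 were abundant, with summed scaled FPKM of all 8 of 1514 to 1783 in Control and 1811 to 2086 in rhChemerin libraries. The other way went EPCAM, at 0.37 to 0.77 in Control and 0.13 to 0.31 in rhChemerin. CDH1 did so too, at 0.23 to 0.37 and 0.088 to 0.20, and both were under 1 throughout. MUC1 measured 9.76 to 13.8 in Control and 7.10 to 9.85 in rhChemerin, and CLDN4 0.59 to 1.25 and 0.35 to 0.67. KRT7 measured 1.21 to 1.84 and 1.22 to 2.01. In MUC1, CLDN4 and KRT7 the groups overlapped. Of the 7 stromal markers, COL1A1 and COL3A1 were abundant as well, and the list summed to 1530 to 1996 in Control and 1260 to 2197 in rhChemerin. The 4 endothelial markers summed to 1.53 to 1.94 and 1.10 to 1.41, and the 4 measured leukocyte markers, with PTPRC near 0, to 118 to 164 and 102 to 140. CD14 measured 49.7, 39 and 35.3 in Control and 21.2, 15.6 and 7.39 in rhChemerin, lower in every treated library and lowest in rhChemerin 3. The part of these markers in the results was not tested, and in bulk RNA fewer cells of a type and less RNA per cell cannot be told apart.

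Most spliceosome genes were slightly higher after rhChemerin. The median log2 fold change of the 125 members was 0.22, a 1.16-fold difference, with the middle 50% of members between 0.10 and 0.29. The median over all tested genes was 0.01. Of the members, 114 had a fold change above 0 and 11 below, against 6886 above and 6425 below among all tested genes. The differences were small: 3 members had an absolute log2 fold change above 0.5, and the values of these are described below.

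In 67 members every rhChemerin library lay above every Control library, in 3 every rhChemerin library lay below, and in 55 the groups overlapped. Among all tested genes 16.5% were higher in every rhChemerin library and 16.0% lower, against 53.6% and 2.40% of the members. These counts depend on the scaling. With library size alone, 34 members were higher in every rhChemerin library and 10 lower, while the counts among all tested genes moved from 2201 higher and 2131 lower to 979 and 3349. That scaling moved the median of all tested genes to -0.12 and that of the members to 0.09, so that the distance between the medians was 0.20, compared with 0.21 under TMM.

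No member passed an adjusted p of 0.05 in the quasi-likelihood test of edgeR, adjusted by the Benjamini-Hochberg method over all tested genes, which called 4 of the 13311 genes (0.0301%). The smallest adjusted p of a member was 0.0948, for HNRNPC. Without adjustment, 41 members had p under 0.05 and were higher (32.8%, against 11.4% of all tested genes), and THOC2 alone had p under 0.05 and was lower (0.800%, against 11.4%). With DESeq2, 11 members passed the adjusted threshold, all higher (8.80%, against 4.58% of all tested genes), and none was lower (background 6.0%). In both directions together this was 8.80% of the members and 10.6% of all tested genes. These 11 were CTNNBL1, DDX39B, HNRNPC, PRPF6, PRPF8, SART1, SF3B2, SF3B3, SNRPC, SYF2 and THOC1. Leaving out 1 library moved the DESeq2 count of members to 0 without Control 2 (2.32% of all tested genes called), 1 without Control 1 (5.72%) and 1 without Control 3 (4.36%). It moved to 29, or 23.2% of the members, without rhChemerin 1 (20.2% of all), 5, or 4%, without rhChemerin 2 (5.04%) and 17, or 13.6%, without rhChemerin 3 (13.7%). The share of members called by DESeq2 was thus near or under the share of all genes in each of these fits except that without rhChemerin 1, where it was slightly above. In edgeR, CTNNBL1, SART1 and SNRPC passed without rhChemerin 1 (2.40% of the members, against 6.24% of all genes tested) and CTNNBL1 without rhChemerin 3 (0.80%, against 3.07%). With limma on log2(FPKM + 1), which applies no TMM factor, 0 members and 179 of all tested genes (1.34%) passed, and 11 higher and 4 lower members had an unadjusted p under 0.05, against 4.71% and 19.4% of all tested genes.

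**Figure D1:**
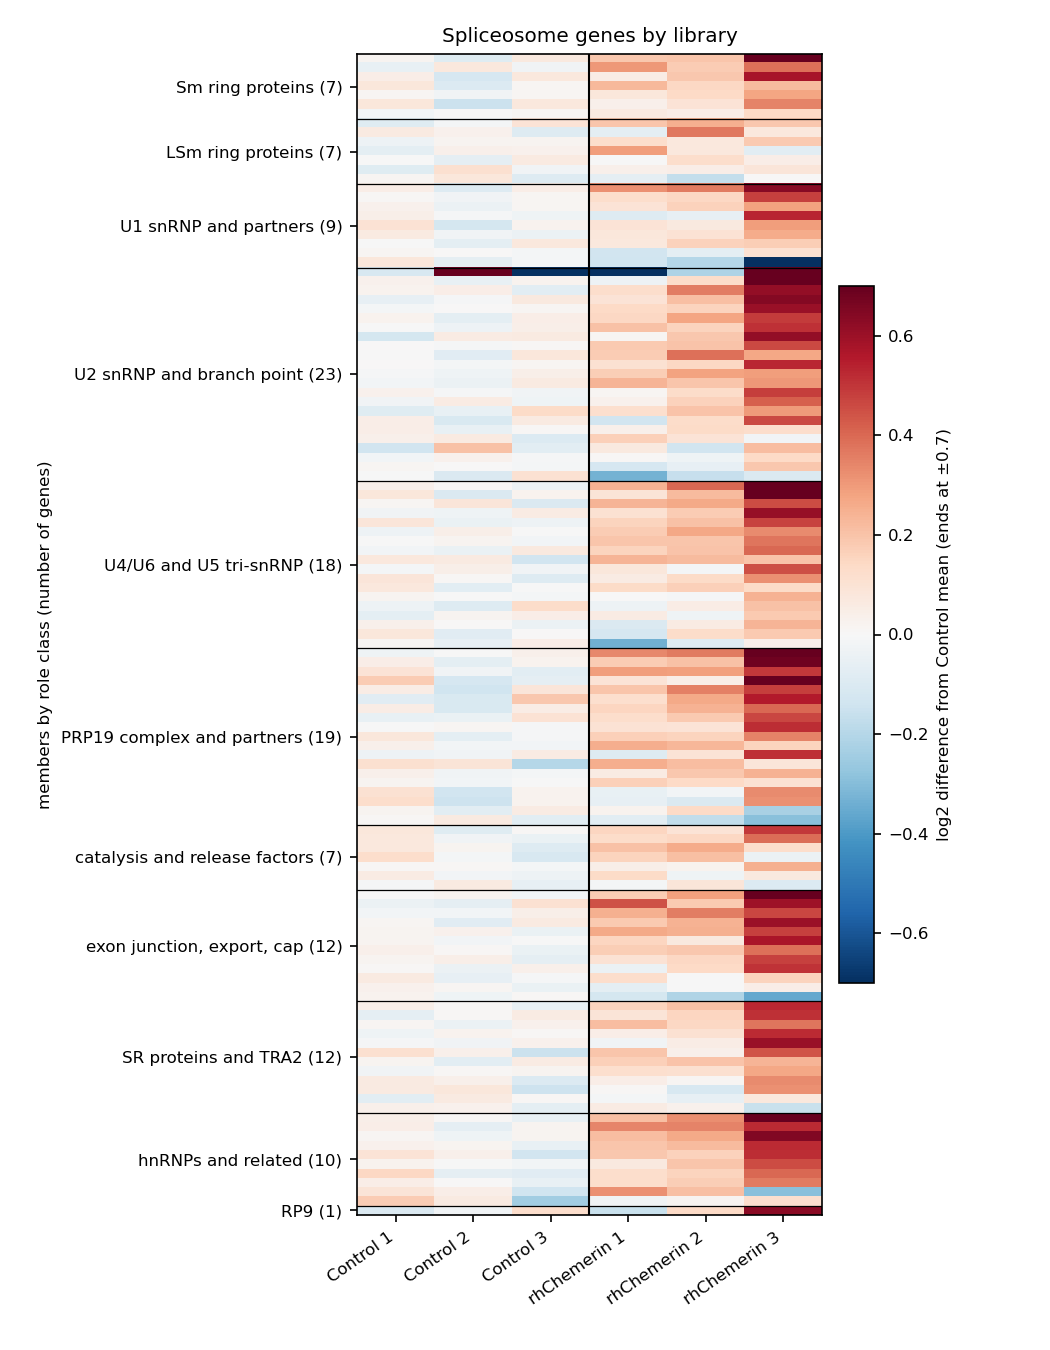
Heat map of the 125 spliceosome genes (rows, grouped by role and ordered within each role by fold change) in the 6 libraries (columns); colour gives the log2 difference of scaled FPKM from the Control mean of the gene, red for higher and blue for lower. Members are redder in the rhChemerin libraries, with median differences of 0.12, 0.15 and 0.37 in libraries 1, 2 and 3.

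The size of the difference was not even among the treated libraries. The median log2 difference of the members from the Control mean was 0.12 in rhChemerin 1, 0.15 in rhChemerin 2 and 0.37 in rhChemerin 3. In the Control libraries the same median lay between -0.02 and 0.02. Of the 125 members, 97 had their highest value in rhChemerin 3, 10 in rhChemerin 1 and 10 in rhChemerin 2. Above every Control library were 78 members in rhChemerin 1, 95 in rhChemerin 2 and 108 in rhChemerin 3. Members took 1.91 to 1.95% of the raw counts in Control and 2.02%, 2.00% and 2.17% in rhChemerin 1, 2 and 3. This share uses no TMM factor and amounts to scaling by library size alone. rhChemerin 3 also had the lowest TMM factor, and the part of this in its higher values was not tested. Without rhChemerin 3, the median log2 fold change of the members was 0.12 and that of all tested genes -0.0049. In that fit 72 members (57.6%) were higher in both remaining treated libraries and 8 (6.40%) lower, against 22.0% and 22.0% of the genes tested.

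The Sm proteins form the ring on the U1, U2, U4 and U5 RNAs, and 5 of the 7 Sm genes (SNRPE, SNRPD2, SNRPF, SNRPD3 and SNRPB) were higher in every rhChemerin library. The median log2 fold change of the class was 0.20. SNRPE had the smallest p, with scaled FPKM of 9.96, 10.9 and 10.2 in Control 1, 2 and 3 and 12.8, 11.7 and 13.5 in rhChemerin 1, 2 and 3. The groups did not overlap, and the log2 fold change was 0.29 ± 0.11 (SE; edgeR adjusted p = 0.181). SNRPB, the most abundant Sm gene, measured 207, 210 and 211 in Control and 218, 216 and 231 in rhChemerin. These values also did not overlap, but lay within a narrow range, with a log2 fold change of 0.08 ± 0.07 (edgeR adjusted p = 0.510) that was -0.05 with library size alone.

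The LSm proteins form the related ring on U6 RNA. Its median log2 fold change was 0.11, and 2 of 7 genes were higher in every treated library and none lower. LSM4 measured 44.2, 46.5 and 50.2 in Control and 53.6, 55.8 and 53.4 in rhChemerin (log2 fold change 0.21 ± 0.08, edgeR adjusted p = 0.195). LSM7, the most abundant, measured 57.6, 59.9 and 59.8 in Control and 64.3, 62.1 and 67.0 in rhChemerin. Both genes were higher in every treated library, although the log2 fold change of LSM7 (0.13 ± 0.08) was -0.01 with library size alone. The values of LSM8, a U6-specific ring protein, overlapped, at 1.88, 1.96 and 1.75 in Control and 1.78, 1.65 and 1.86 in rhChemerin.

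Among the 9 genes of the U1 snRNP and its partners, 4 were higher in every rhChemerin library, 1 was lower, and the median log2 fold change was 0.15. SNRPC (NCBI gene 6631, chr6:34757406-34773794, plus strand), which encodes the U1-C protein that contacts the start of the intron, measured 138, 125 and 137 in Control and 166, 172 and 207 in rhChemerin. All treated libraries lay above all Control libraries. The mean was 133 ± 7.30 (SD, n = 3) in Control and 182 ± 22.2 (SD, n = 3) in rhChemerin, with a log2 fold change of 0.45 ± 0.11 (edgeR adjusted p = 0.102, DESeq2 adjusted p = 0.0107). Without rhChemerin 1 its edgeR adjusted p was 0.0470. The other U1-specific proteins, encoded by SNRNP70 and SNRPA and named here after their values were seen, had overlapping groups with log2 fold changes of 0.13 and 0.15.

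PRPF40B, a relative of a yeast U1 protein, went the other way from most members, with 4.12, 3.72 and 3.86 in Control and 3.54, 3.39 and 2.03 in rhChemerin. All treated values were lower, the lowest being that of rhChemerin 3 (log2 fold change -0.38 ± 0.21, edgeR adjusted p = 0.311).

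In the U2 snRNP and branch point class, 10 of 23 genes were higher in every rhChemerin library, none lower, and the median log2 fold change was 0.25. The SF3B complex holds the branch point within the U2 snRNP. Its subunit SF3B2 (NCBI gene 10992, chr11:66050729-66069308, plus strand) measured 92.9, 91.6 and 96.1 in Control and 105, 114 and 115 in rhChemerin (log2 fold change 0.25 ± 0.08, edgeR adjusted p = 0.142, DESeq2 adjusted p = 0.0400). SF3B5, the most abundant of the class, measured 134, 127 and 141 in Control and 151, 175 and 161 in rhChemerin. For both subunits the groups were separate, and the log2 fold change of SF3B5 was 0.28 ± 0.09 (edgeR adjusted p = 0.142). Not every subunit followed: in SF3B1, SF3B4 and SF3B6, named after their values were seen, the groups overlapped, with log2 fold changes of 0.08, 0.40 and 0.10. SF3B4 rested on 1 library, at 81.3 and 91.3 in rhChemerin 1 and 2 and 159 in rhChemerin 3, against 80.6 to 85.1 in Control.

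The tri-snRNP class held 18 genes, of which 10 were higher in every rhChemerin library, none was lower, and the median log2 fold change was 0.20. PRPF8, the large U5 protein at the catalytic centre, measured 123, 129 and 125 in Control and 142, 152 and 158 in rhChemerin. PRPF6, which bridges the U5 and U4/U6 particles, measured 44.4, 46.5 and 41.0 in Control and 51.8, 52.7 and 60.3 in rhChemerin. The groups were separate in both genes, with log2 fold changes of 0.26 ± 0.09 for PRPF8 and 0.32 ± 0.09 for PRPF6. Their edgeR adjusted p-values were 0.165 and 0.129, and those of DESeq2 0.0321 and 0.0449. SART1, a tri-snRNP recruitment factor named after its values were seen, had the largest log2 fold change of any member with separate groups, 0.53 ± 0.16 (edgeR adjusted p = 0.132, DESeq2 adjusted p = 0.0357). It measured 36.0 to 37.98 in Control and 43.9, 49.0 and 67.3 in rhChemerin, highest in rhChemerin 3. SNRNP27, by contrast, measured 21.3, 20.2 and 21.7 in Control and 16.7, 19.9 and 21.6 in rhChemerin, and the groups overlapped.

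Of the 19 genes of the PRP19 complex and its partners, 11 were higher in every rhChemerin library and 1 lower, with a median log2 fold change of 0.22. CTNNBL1 (NCBI gene 56259, chr20:37693955-37872129, plus strand), a partner of the PRP19 complex, measured 22.4, 22.8 and 23.4 in Control and 28.9, 29.4 and 37.4 in rhChemerin. The Control libraries were close together and all treated libraries were above them, rhChemerin 3 the farthest. Its log2 fold change was 0.48 ± 0.12 (edgeR adjusted p = 0.105, DESeq2 adjusted p = 0.0135). The edgeR adjusted p was 0.0498 without rhChemerin 1 and 0.0474 without rhChemerin 3.

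SYF2 (NCBI gene 25949, chr1:25222679-25232502, minus strand) belongs to the same class. It measured 21.7, 19.9 and 19.3 in Control and 24.8, 24.8 and 28.5 in rhChemerin. The groups were separate, and the log2 fold change was 0.36 ± 0.10 (edgeR adjusted p = 0.123, DESeq2 adjusted p = 0.0378). PRPF19, the ubiquitin ligase that names the complex, measured 77.3, 71.4 and 76.2 in Control and 84.7, 86.4 and 120 in rhChemerin, again highest in rhChemerin 3 (log2 fold change 0.37 ± 0.14, edgeR adjusted p = 0.188). ISY1 was the exception, with 4.37, 4.54 and 4.12 in Control and 4.12, 3.84 and 3.54 in rhChemerin. The separation was minimal, since Control 3 and rhChemerin 1 were equal to 3 digits, and the log2 fold change was -0.18 ± 0.12 (edgeR adjusted p = 0.391).

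The helicases and factors of catalysis and release made a small class of 7 genes with a median log2 fold change of 0.11. DHX38, which acts at the catalytic steps, measured 36.3, 34 and 33.4 in Control and 37.7, 38.2 and 45.3 in rhChemerin. DHX15, a helicase of spliceosome disassembly, measured 66.3, 59.1 and 63.1 in Control and 69.8, 67.0 and 88.4 in rhChemerin. Both were higher in every treated library, as were DHX16 and PRPF18 (4 of 7), but no gene of the class had an unadjusted p under 0.05. The log2 fold changes were 0.22 ± 0.10 for DHX38 and 0.26 ± 0.12 for DHX15 (edgeR adjusted p = 0.224 and 0.255).

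For proteins of the exon junction complex, of mRNA export and of the cap the median log2 fold change was 0.27, with 8 of 12 genes higher in every rhChemerin library and 1 lower. DDX39B (NCBI gene 7919, chr6:31530219-31542448, minus strand), the export helicase UAP56, measured 154, 155 and 147 in Control and 182, 181 and 212 in rhChemerin. All treated libraries were higher, and the log2 fold change was 0.34 ± 0.09 (edgeR adjusted p = 0.119, DESeq2 adjusted p = 0.0231). ALYREF, an export adaptor named after its values were seen, was the third member above 0.5 with U2AF1 and SART1, at 0.50 ± 0.19. Its values were 99.0 to 102 in Control and 114, 122 and 190 in rhChemerin.

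Among the members from the THO complex, which couples transcription to export, THOC1 and THOC2 went in opposite directions, a difference that was not tested. THOC1 (NCBI gene 9984, chr18:214520-268050, minus strand) measured 5.92, 5.91 and 6.16 in Control and 7.13, 7.69 and 8.29 in rhChemerin. THOC2 (NCBI gene 57187, chrX:123600561-123733056, minus strand) measured 18.6, 17.9 and 18.4 in Control and 16.8, 15.8 and 14.3 in rhChemerin. Both groups were tight and separate, but in opposite directions, with log2 fold changes of 0.36 ± 0.10 for THOC1 and -0.23 ± 0.08 for THOC2. The edgeR adjusted p-values were 0.119 and 0.178 and the DESeq2 adjusted p-values 0.0326 and 0.125. In THOC3, also named after its values were seen, the groups overlapped (log2 fold change 0.09 ± 0.09).

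Of the 12 SR protein and TRA2 genes, 6 were higher in every rhChemerin library, none was lower, and the median log2 fold change was 0.22. SRSF3, which binds exonic enhancers and takes part in export, measured 47.0, 45.3 and 47.5 in Control and 54.1, 51.4 and 60.5 in rhChemerin. The groups were separate (log2 fold change 0.25 ± 0.09, edgeR adjusted p = 0.166). SRSF2, the most abundant SR gene, measured 228, 216 and 190 in Control and 241, 216 and 286 in rhChemerin. Here the groups overlapped, and the log2 fold change was 0.23 ± 0.13 (edgeR adjusted p = 0.319). SRSF5 and SRSF10, named after their values were seen, were nearest to 0 in the class, at -0.02 and 0.00.

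The hnRNPs and related proteins had the highest class median, 0.27, with 7 of 10 genes higher in every rhChemerin library and none lower. HNRNPC (NCBI gene 3183, chr14:21209136-21269494, minus strand), which binds uridine tracts, measured 105, 97.4 and 103 in Control and 129, 130 and 147 in rhChemerin. The groups were separate by more than their own ranges. The means were 102 ± 4.12 and 135 ± 10.01 (SD, n = 3 each), the log2 fold change was 0.41 ± 0.09, and the adjusted p was 0.0948 with edgeR and 0.00192 with DESeq2. HNRNPA1, the most abundant gene of the class, measured 251, 240 and 214 in Control and 267, 263 and 336 in rhChemerin (log2 fold change 0.30 ± 0.13, edgeR adjusted p = 0.227). Its treated libraries were all higher as well. RP9, the 1 member placed in no role class, had overlapping groups and a log2 fold change of 0.24.

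**Figure D2:**
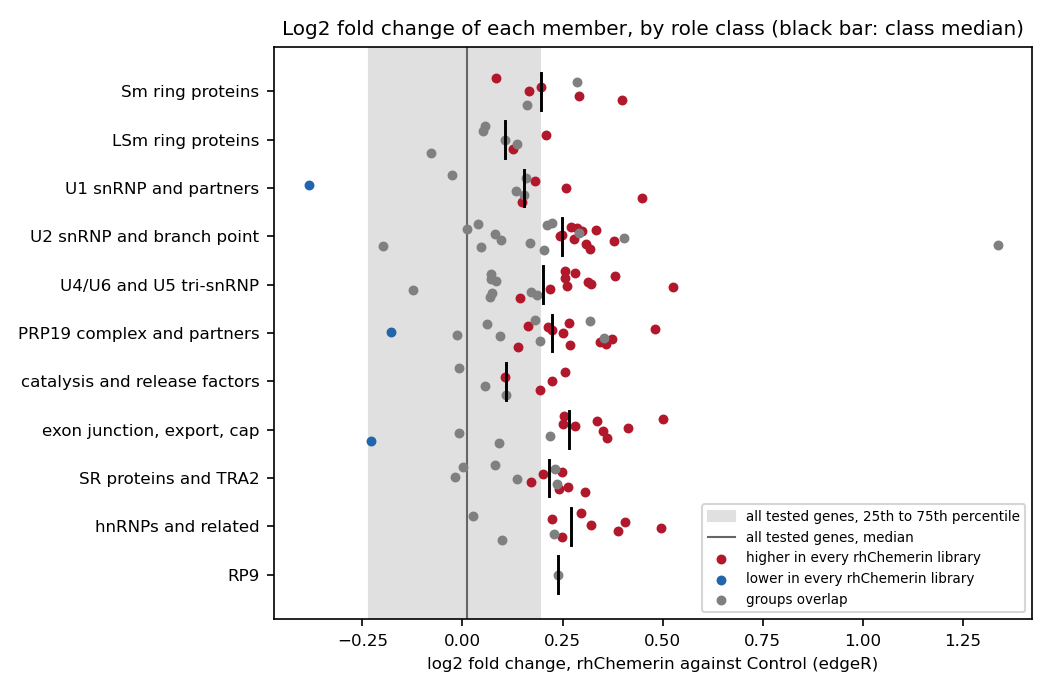
Log2 fold change of each of the 125 members (x axis, rhChemerin against Control, edgeR) by role class (y axis); points are genes, black bars class medians, the grey line and band the median and the middle 50% of all tested genes. Class medians run from 0.11 for the LSm genes to 0.27 for the hnRNPs, and 3 genes, THOC2, PRPF40B and ISY1, are lower in every rhChemerin library.

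**Figure D3:**
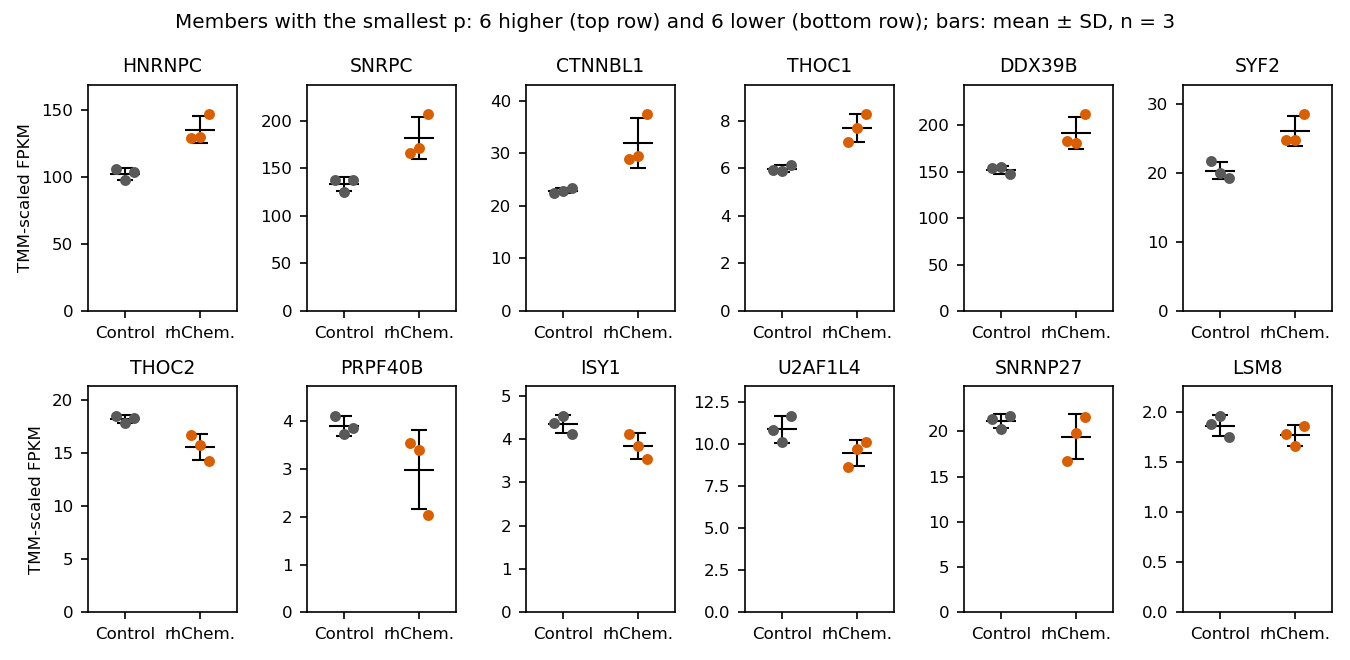
TMM-scaled FPKM (y axis, from 0) in the 3 Control (grey) and 3 rhChemerin libraries (orange, in the order 1 to 3) for the 6 higher members with the smallest p (top) and the 6 lower members with the smallest p (bottom); bars give mean ± SD. The groups are separate in all 6 upper panels and in THOC2, PRPF40B and ISY1, and overlap in U2AF1L4, SNRNP27 and LSM8.

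The 6 lower members with the smallest p were THOC2, PRPF40B, ISY1, U2AF1L4, SNRNP27 and LSM8, and none of them had an adjusted p under 0.05 with edgeR or DESeq2. U2AF1L4, a relative of the small subunit of the U2 auxiliary factor, measured 10.8, 10.1 and 11.7 in Control and 8.63, 9.68 and 10.1 in rhChemerin. Its groups nearly separated, with rhChemerin 3 at the level of Control 2, and the log2 fold change was -0.20 ± 0.15 (edgeR adjusted p = 0.458). These 6 were not abundant, with a mean FPKM under that of the median member, 36.9.

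Without rhChemerin 3, the log2 fold change was more than 1.5 times smaller or turned sign in 74 of the 125 members, and 103 members stayed above 0. Among the 33 members named by rule this held for 12. The value fell to 0.12 for DHX15, 0.13 for DHX38, 0.17 for HNRNPA1, 0.11 for MAGOH, 0.19 for PRPF19, 0.13 for RBMX, 0.05 for SNRPB and 0.11 for SRSF2. PRPF40B came nearer to 0, at -0.17, and the rest were U2AF1, U2AF1L5 and HNRNPA1L2, which turned sign. Of the genes named after their values were seen, ALYREF was at 0.23, SART1 at 0.32 and SF3B4 at 0.04. RBMXL1, SNRNP27 and LSM8 moved away from 0, to 0.26, -0.21 and -0.12.

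Several members have copies or similar relatives. Where long stretches are identical, reads may have been divided between copies in alignment and counting. The coding sequences of U2AF1 (chr21:43092956-43107587) and U2AF1L5 (chr21:6484623-6499261), taken from GENCODE release 29 on GRCh38, were identical over all 723 bases. HNRNPA1 and HNRNPA1L2 were 98.44% identical and RBMX and RBMXL1 97.02%, with longest identical runs of 174 and 152 bases. MAGOH and MAGOHB were less alike, at 85.46%, and so were SNRPB and its relative SNRPN, which is not a member, at 82.16%. Their longest identical runs were 38 and 32 bases. Only coding sequence was compared, and untranslated exon bases were not. Bases 61 to 150 of 3 pairs are shown 5′ to 3′ on the coding strand, with capitals at the bases that differ within the pair. They set the pair with identical coding sequence beside pairs that differ.
U2AF1: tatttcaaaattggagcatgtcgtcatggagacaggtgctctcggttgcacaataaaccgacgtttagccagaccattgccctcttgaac
U2AF1L5: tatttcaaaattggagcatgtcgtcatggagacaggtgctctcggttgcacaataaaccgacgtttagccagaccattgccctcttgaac
HNRNPA1: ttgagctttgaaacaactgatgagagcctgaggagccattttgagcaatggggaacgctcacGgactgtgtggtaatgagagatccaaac
HNRNPA1L2: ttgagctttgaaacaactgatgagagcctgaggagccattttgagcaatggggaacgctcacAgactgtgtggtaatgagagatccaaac
MAGOH: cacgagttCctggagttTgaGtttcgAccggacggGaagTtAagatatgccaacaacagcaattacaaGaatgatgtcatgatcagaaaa
MAGOHB: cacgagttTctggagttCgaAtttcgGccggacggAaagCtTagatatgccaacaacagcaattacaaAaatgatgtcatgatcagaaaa

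U2AF1, the small subunit of the factor that reads the end of the intron, had the largest fold change of any member and the largest error. Its raw counts were 76, 304 and 26 in Control 1, 2 and 3 and 32, 68 and 810 in rhChemerin 1, 2 and 3. They varied widely within both groups, and the log2 fold change of 1.34 ± 1.28 (edgeR adjusted p = 0.547) became -1.36 without rhChemerin 3. The copy U2AF1L5 had steady counts of 142, 189 and 152 in Control and 170, 136 and 165 in rhChemerin (log2 fold change 0.05 ± 0.21). The summed counts of the pair, 218, 493 and 178 in Control and 202, 204 and 975 in rhChemerin, varied as well. The values of both genes are uncertain. Both are included in the member totals and class median above, but no direction was read from either gene on its own.

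In the other pairs the more abundant copy was higher in every treated library. MAGOH and MAGOHB, core proteins of the exon junction complex, were both higher: MAGOH counts were 1213, 1247 and 1230 in Control and 1389, 1205 and 1629 in rhChemerin, with the groups separate only after scaling (log2 fold change 0.28 ± 0.14, edgeR adjusted p = 0.278). MAGOHB counts were 442, 460 and 503 in Control and 647, 497 and 627 in rhChemerin (log2 fold change 0.41 ± 0.14, edgeR adjusted p = 0.163). HNRNPA1L2, with 330 to 431 counts in Control and 370 to 390 in rhChemerin, had overlapping groups and a log2 fold change of 0.03 ± 0.16, against counts of 30277 to 42229 for HNRNPA1. RBMX, an X-linked hnRNP, measured 78.0 to 80.4 in Control and 83.1 to 109 scaled FPKM in rhChemerin (log2 fold change 0.25 ± 0.11), and RBMXL1 6.38 to 7.50 and 5.75 to 8.77 (0.10 ± 0.17). SNRPN had 10 to 32 counts per library, against 8218 to 9058 for SNRPB.

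**Figure D4:**
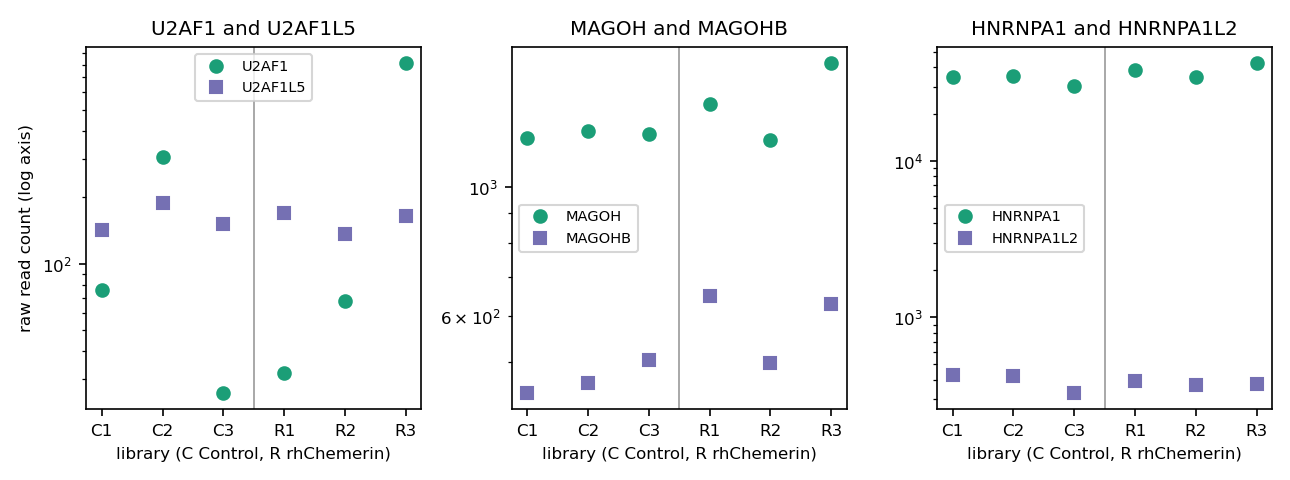
Raw read counts (y axis, log scale) of 3 pairs of similar genes in the 6 libraries (x axis; C for Control, R for rhChemerin). U2AF1 (circles) runs from 26 to 810 across libraries while U2AF1L5 (squares), a copy with identical coding sequence, stays between 136 and 189.

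Other members share exon bases with a neighbouring gene in GENCODE release 29, and the strand setting of the counting is not given in the sources used here. With genes on the opposite strand, 55 members shared exon bases and 7 shared over 20% of their own: among the genes named above these were PRPF40B (27.99%, FMNL3) and SRSF2 (36.7%, MFSD11). With genes on the same strand, 6 members shared over 20%, among them DDX39B (29.7%, with the read-through ATP6V1G2-DDX39B), ISY1 (22.2%, ISY1-RAB43), SNRPB (20.03%, AL049650.1) and U2AF1L4 (24.8%, AD000671.2). Of THOC2, which was lower, 5.94% of exon bases lay opposite the pseudogene FERP1.

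The members were abundant genes, with a median of the mean FPKM of 36.9 against 7.57 over all tested genes, and abundance itself went with the direction in these libraries. None of the members had a mean FPKM under 1. Among genes of 1 to 10 FPKM, the median log2 fold change was 0.12 for the 18 members and -0.03 for the 5319 other genes. Among genes of 10 to 100, the 89 members had a median of 0.22 and 56.2% of them were higher in every treated library, compared with 0.08 and 23.3% for 5063 other genes. Above 100 the 18 members and the 524 other genes were close, with medians of 0.26 and 0.24 and shares of 66.7% and 54.8%. The part of abundance in the members' shift was not tested.

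**Figure D5:**
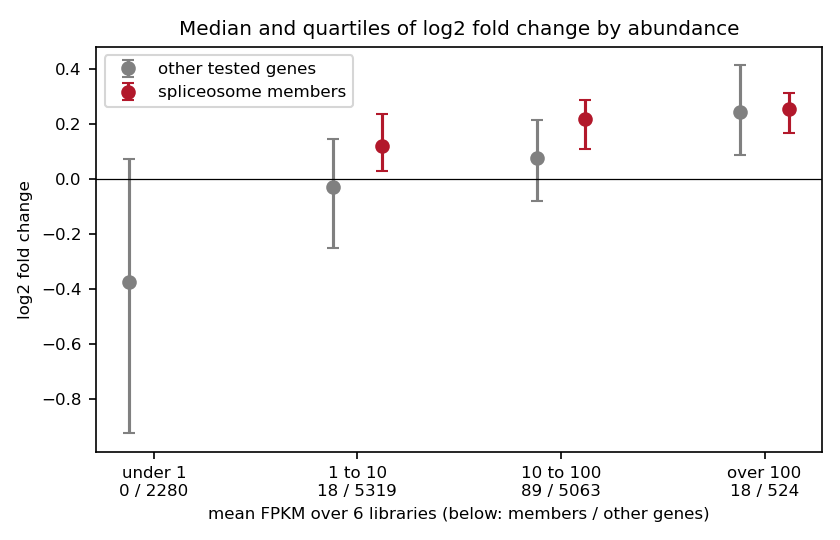
Median log2 fold change (y axis; bars from the 25th to the 75th percentile) of members (red) and other tested genes (grey) in 4 classes of mean FPKM (x axis, with the number of genes of each kind). The median of the members is 0.12 against -0.03 at 1 to 10 FPKM and 0.26 against 0.24 above 100 FPKM.

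RefSeq promoters of GRCh38.p14, from 250 bases before to 50 after the annotated start, were matched to 108 of the 125 members. They were searched on both strands for short letter strings named after the factors that prefer them. The ETS string CCGGAAG (or CTTCCGG) stood in 44.4% of the member promoters, in 18.8% of the promoters of 10873 tested genes and in 10.7% of all 27305 promoters. The NRF1 string GCGCATGC stood in 9.26%, 5.36% and 3.27%, the YY1 string AAGATGGC in 10.2%, 5.20% and 3.03%, the E-box CACGTG in 8.33%, 10.1% and 7.43%, the TATA string TATAAA in 7.41%, 5.65% and 12.0%, and CCAAT in 38.9%, 36.4% and 35.7%. ETS strings were common among these genes. The median log2 fold change was 0.21 for members with the string and 0.22 for members without it. For NRF1 the medians were 0.11 with the string (10 members) and 0.22 without, and for TATA 0.29 (8 members) and 0.20. They were 0.25 and 0.21 for YY1, 0.22 and 0.21 for the E-box and 0.22 and 0.21 for CCAAT. None of these differences was tested. Median GC content was 60.7% in the member promoters and 65.3% in those of tested genes.

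The 250 bases before the start are shown for SYF2 and PRPF6, members that were higher in every treated library and hold 2 ETS strings each, and for SF3B5, which was also higher and holds no ETS string there. They are written 5′ to 3′ on the strand of the gene, with ETS strings in capitals, and lie at chr1:25232503-25232752 (minus), chr20:63980882-63981131 (plus) and chr6:144095574-144095823 (minus). A match of letters does not show that a factor bound there.
SYF2: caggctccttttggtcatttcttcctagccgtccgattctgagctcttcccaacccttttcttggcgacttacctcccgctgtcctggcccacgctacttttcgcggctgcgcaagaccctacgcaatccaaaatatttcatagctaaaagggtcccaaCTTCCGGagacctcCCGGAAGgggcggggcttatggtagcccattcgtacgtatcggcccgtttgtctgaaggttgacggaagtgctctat
PRPF6: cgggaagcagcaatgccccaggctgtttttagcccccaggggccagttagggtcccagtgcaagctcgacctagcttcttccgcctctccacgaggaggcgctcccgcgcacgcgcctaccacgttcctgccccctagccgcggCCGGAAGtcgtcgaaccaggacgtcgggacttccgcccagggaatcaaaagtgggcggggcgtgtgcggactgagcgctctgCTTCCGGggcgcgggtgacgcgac
SF3B5: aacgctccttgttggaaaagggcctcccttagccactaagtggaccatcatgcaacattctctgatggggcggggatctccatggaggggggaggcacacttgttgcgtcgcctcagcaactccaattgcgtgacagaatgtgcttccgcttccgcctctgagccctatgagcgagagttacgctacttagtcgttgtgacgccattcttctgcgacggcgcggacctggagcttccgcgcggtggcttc

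Splicing genes outside the KEGG map were listed separately. Of 38 tested splicing regulators, 18 were higher in every rhChemerin library and 3 lower, with a median log2 fold change of 0.23. The shares among all tested genes were 16.5% and 16.0%. MBNL1, a regulator of alternative exons, measured 23.8, 23.1 and 22.8 in Control and 28.5, 33.4 and 41.8 in rhChemerin (log2 fold change 0.57 ± 0.14, edgeR adjusted p = 0.103, DESeq2 adjusted p = 0.00741). HNRNPD, an hnRNP that KEGG does not place on the map, measured 71.9, 68.0 and 66.5 in Control and 86.5, 89.3 and 112 in rhChemerin. Its groups were separate (log2 fold change 0.48 ± 0.12, edgeR adjusted p = 0.103, DESeq2 adjusted p = 0.00856).

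The 19 snRNP assembly factors had a median of 0.16. Against 16.5% higher and 16.0% lower among all tested genes, 3 of them were higher in every treated library and none lower. Of these, PRMT5, the methyltransferase that modifies Sm proteins, had a log2 fold change of 0.40 ± 0.13 (edgeR adjusted p = 0.155) and STRAP, a partner of the SMN complex, 0.33 ± 0.12 (edgeR adjusted p = 0.179). PRMT5 measured 45.8 to 51.7 in Control and 53.6, 61.1 and 75.8 in rhChemerin. Without rhChemerin 3 the log2 fold changes were 0.25 and 0.18. Among 11 SR protein kinases and related factors the median was 0.15 and 3 were higher, including TNPO3, the importin of SR proteins (0.21 ± 0.08, edgeR adjusted p = 0.183). The minor spliceosome, which removes a rare class of introns, stood lowest, and its 10 genes, 1 higher and 1 lower in every treated library, had a median of 0.10. The lower gene, CENATAC, measured 5.64, 5.38 and 5.71 in Control and 4.36, 3.19 and 3.71 in rhChemerin (log2 fold change -0.57 ± 0.18, edgeR adjusted p = 0.141, DESeq2 adjusted p = 0.0387). The same 16.5% and 16.0% are the background for the counts of the other lists here. The differences between these lists and the members were not tested. Of the heat shock genes on the map that the member rule left out, 5 were tested. Of these, 1 was higher and 1 lower in every treated library, and the median was 0.26.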

How the data were processed

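RNA-seq of 12Z cells (Control, n = 3; rhChemerin, n = 3) was deposited by the authors as raw read counts per gene and as FPKM. Per the labels and methods, the authors trimmed reads with fastp, aligned them with HISAT2 to GRCh38.p13 and counted them with HTSeq; the strand setting and annotation release are not given in the sources used here. The deposited FPKM were the counts scaled by library total and by 1 length per gene. Counts were tested in R 4.3.3 with edgeR 4.0.16 (TMM, filterByExpr, quasi-likelihood test, Benjamini-Hochberg over 13311 genes). DESeq2 1.42.0, limma 3.58.1, other scalings and filters, a replicate block and removal of each library were alternatives. Scripts were checked on simulated counts. A gene was called higher or lower in every rhChemerin library from TMM-scaled CPM. The SE given with a log2 fold change was derived from the edgeR test. It is the absolute log2 fold change divided by the square root of the quasi-likelihood F statistic.

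Dose and time come from the methods. The members and lists were chosen with earlier results of these data known. Role classes were written by hand. Genes with values were, per class, the most abundant and the one with the smallest p. So were the 6 higher and 6 lower members with the smallest p and the genes of the pairs of copies or relatives. The rule also took the 2 genes with the smallest p under 0.05 in each further splicing list. A gene that this rule names is not reported here. Other genes were named after their values were seen. Of the authors' table, annotation columns were used only for the pathway rule, for NCBI gene numbers and to match genes to promoters.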

Additional observations from a re-analysis of the deposited data

How the results depend on the processing

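The median log2 fold change of the members stayed above 0 in every alternative. It was 0.087 with library size alone, 0.08 with limma on log2(FPKM + 1) (0.0754) and 0.08 on log2(FPKM + 0.1) (0.0785), and 0.12 to 0.26 when each library was left out, lowest without rhChemerin 3. Members higher in every treated library numbered 34 (27.2%) with library size alone and in both limma fits, where 7.35 to 7.36% of all genes were higher. Without 1 library they numbered 70 to 87 (56 to 69.6%), against 18.5 to 24.4% of all genes. Members lower in every treated library numbered 10 (8%) with library size alone and in both limma fits, where 25.1 to 25.2% of all genes were lower. With upper quartile scaling they numbered 5 (4%), against 17.8% of all genes. Without 1 library they numbered 2 to 8 (1.6 to 6.4%), against 18 to 25.4% of all genes, with 8 without rhChemerin 3. edgeR called 0 to 3 members without 1 library (CTNNBL1, SART1 and SNRPC without rhChemerin 1 and CTNNBL1 without rhChemerin 3), against 0 with all 6. DESeq2 called 11. Its count without 1 library, an alternative chosen after seeing the data, ran from 0 without Control 2 to 29 without rhChemerin 1, with 1 without Control 1, 1 without Control 3, 5 without rhChemerin 2 and 17 without rhChemerin 3, while 2.32 to 20.2% of all genes were called. The cause of these differences was not tested.

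Of 495 values of named members under alternatives, 461 kept their direction and side of the threshold, 12 passed the threshold and 22 reversed, all of them with small or uncertain log2 fold changes. With library size alone LSM7 was -0.0051, SNRPB -0.047, U2AF1L5 -0.086, HNRNPA1L2 -0.11 and RBMXL1 -0.019. HNRNPA1L2 was -0.020 with upper quartile scaling. On log2(FPKM + 1), LSM7 was -0.0051, SNRPB -0.047, U2AF1L5 -0.065, HNRNPA1L2 -0.079 and RBMXL1 -0.041. On log2(FPKM + 0.1) they were -0.0052, -0.047, -0.080, -0.093 and -0.050. Without 1 library, U2AF1L5 ran from -0.041 to 0.16, HNRNPA1L2 from -0.086 to 0.12, RBMXL1 from -0.030 to 0.26 and U2AF1 from -1.36 to 2.70.

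The deviations of same-numbered libraries from their group means correlated with r = 0.24, 0.0015 and 0.25 for numbers 1, 2 and 3 over all tested genes. For Control 1 and Control 3 the same-numbered library was the best match, but Control 2 correlated best with rhChemerin 1 (0.11). The numbers were not taken as pairs in the main fit. These values do not settle whether same-numbered libraries shared an effect. With the replicate block edgeR called 0 members and the median was 0.21. With 3 libraries a group, 0.1 is the smallest p that exact two-sided permutation can give for 1 gene.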
